A study of Mus musculus with 62 samples.

Results

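The 2 wk stage of a melanoma that does not cause cachexia was compared with mock injection in mouse cerebellum, as 5 libraries of tumour-bearing mice (NCAC) against 5 libraries of mock-injected mice. These 10 of the 62 RNA-seq libraries in the series were chosen by the column names of the deposited table, which end in the treatment and the week. NCAC mice had received non-cachectic melanoma cells and mock mice a mock injection, both 2 weeks (wk) before the cerebellum was taken. The series also holds mice given a cachectic melanoma (CAC), and all 3 treatments at 4, 6 and 8 wk. All animals were female and labelled with an age of 2 months. The labels conflict on the strain, with C57BL6/J in the sample fields and NCI Ath/nude in the design text, so it is not stated here. If the mice were athymic nudes, they lacked thymus-derived T cells in every group, mock included. The labels call the replicates biological but tie no library to a named animal or cage. The p-values therefore measure a spread between libraries of the same group, pooled over all 62 libraries of the series. The labels give neither a batch nor the hour at which tissue was collected.

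Levels are given as TPM, a share of each library's transcripts after correction for gene length. TPM keeps no sequencing depth, so depth is unknown for every library and the precision rests on the replicates. Differences are given as log2 fold changes of TPM + 1, NCAC minus mock, with their standard errors (SE). On this scale the change of a gene with low TPM comes out too small. Tests were run with limma on 14399 genes in 1 fit of all 12 groups, with Benjamini-Hochberg adjustment over all of them. A gene is said to have passed the test at an adjusted p under 0.05. In bulk tissue, fewer cells of a type and less RNA per cell cannot be told apart.

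The labelled tissue was checked against marker genes. Summed TPM of 10 Purkinje cell markers was 7110 to 8210 in NCAC and 7290 to 7990 in mock, and that of 10 granule cell markers was 5320 to 5820 in NCAC and 5370 to 5790 in mock. The forebrain markers Emx1, Tbr1, Drd1, Lhx2 and Bcl11b stayed under 1 TPM in all 10 libraries, as did the melanocyte genes Mlana, Tyr, Tyrp1 and Slc45a2 and the T cell genes Cd3e, Cd3d, Cd3g, Cd4, Cd8a and Lck. Other members of these lists were detected. The 2 tested forebrain genes summed to 5.31 to 6.86 TPM in NCAC and 5.32 to 8.04 TPM in mock. For the 2 tested melanocyte genes the sums were 7.04 to 8.54 and 7.23 to 8.52 TPM. The 1 tested T cell gene had 3.69 to 4.53 and 3.31 to 4.94 TPM, and the 2 tested brainstem genes summed to 18 to 24.6 and 17 to 23.5 TPM. Pearson correlations between the 10 libraries, on the log2 scale, ran from 0.9839 to 0.9937. Some libraries stood apart in a few gene groups. NCAC libraries 1, 3 and 5 had almost no choroid plexus RNA, and mock library 5 was high in interferon and glucocorticoid response genes and in red blood cell RNA. The counts and medians of the lists these libraries touch are also given without them.

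Few genes passed the test. Limma called 2 of 14399 genes (0.0139%), both higher in NCAC, and 780 genes (5.42%) had an unadjusted p under 0.05, with 471 higher (3.27%) and 309 lower (2.15%). The ranges of the 5 NCAC and 5 mock libraries did not overlap for 135 genes that were higher (0.938%) and 55 that were lower (0.382%) in NCAC. Of the genes with an unadjusted p under 0.05, 60.4% were higher in NCAC, against 50.6% with median-of-ratios scaling, 51.6% with quantile normalization and 43.9% without the mitochondrially encoded genes. The median log2 fold change over all tested genes was 0.009.

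The called gene Mpc1 encodes a subunit of the mitochondrial pyruvate carrier, the heteromer with Mpc2 that brings pyruvate into mitochondria. It lies on chromosome 17 (chr17:8282904-8297661, plus strand, mm10). Mpc1 had 236, 217, 220, 211 and 225 TPM in NCAC libraries 1 to 5, against 192, 185, 186, 195 and 188 TPM in mock libraries 1 to 5. All 5 NCAC libraries lay above all 5 mock libraries. The log2 fold change was 0.23 ± 0.04 (95% interval 0.14 to 0.31; adjusted p = 0.0259 in limma), a ratio of means of 1.17. NCAC at 2 wk had the highest mean of the 12 groups and mock at 2 wk the second lowest. At the later stages the difference was 0.04 at 4 wk, -0.04 at 6 wk and 0.11 at 8 wk. The change of the difference between the 2 wk stage and the mean of the later stages was 0.19 (unadjusted p = 0.000528; adjusted p = 0.537). The adjusted p was 0.0676 with median-of-ratios scaling, 0.154 with quantile normalization, 0.0539 without mitochondrially encoded genes, 0.0954 with a choroid plexus covariate and 0.0696 when these 10 libraries were fitted alone, and leaving out 1 library at a time gave 0.0297 to 0.231. It exceeded 0.05 without NCAC library 1 (0.231), 3 (0.0786) or 5 (0.128) and without mock library 1 (0.0578), 2 (0.187), 3 (0.168) or 5 (0.101).

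Other genes of pyruvate handling differed little. Of 19 tested members of a pyruvate list, which includes Mpc1 itself, only Mpc1 passed the test (0.0139% of all genes did). With Mpc1 counted, 3 were higher at an unadjusted p under 0.05 (3.27% of all genes were). The median log2 fold change was 0.011. Mpc2, the partner subunit, had 48.3, 49.7, 53.3, 48.7 and 47.1 TPM in NCAC libraries 1 to 5, against 46.9, 46.6, 47.8, 47.4 and 48.5 TPM in mock libraries 1 to 5. Its ranges overlapped, at a log2 fold change of 0.06 ± 0.05 (95% interval -0.04 to 0.15). The monocarboxylate transporter Slc16a7 (log2 fold change 0.18 ± 0.07) and pyruvate carboxylase Pcx (0.08 ± 0.03), which makes oxaloacetate, were the other members with an unadjusted p under 0.05. The pyruvate dehydrogenase subunits Pdha1 (-0.004), Pdhb (0.001) and Dlat (0.07) and the lactate dehydrogenase subunits Ldha (-0.01) and Ldhb (0.01) lay within 0.07 of 0. The dehydrogenase kinase Pdk4, also a glucocorticoid target, was at 0.53 (unadjusted p = 0.0819), with mock library 5, at 14.8 TPM, within the NCAC range.

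Of the gene lists examined, the 2 clock lists held the most members at an unadjusted p under 0.05, by number of genes. Choroid plexus genes, described below, had a like share, with 7 of 10 at that limit. The mammalian clock is a feedback loop in which Clock, or its paralogue Npas2, pairs with Arntl (BMAL1) and binds E-box sequences to switch on the Period and Cryptochrome genes, whose proteins then repress that pair. A second arm uses nuclear receptors such as Rora and Rorb as activators and Nr1d1 and Nr1d2 as repressors of Arntl, and output factors such as Dbp, Tef and Hlf carry the rhythm to genes with D-boxes. In tissues that run a clock, including the cerebellum, these transcripts cycle over the day, with Arntl opposite in phase to the Period genes and Dbp. Of 26 tested clock genes (14 core genes and 12 outputs), 0 passed the test over all genes. At an unadjusted p under 0.05, 16 were higher and 2 lower in NCAC (69.2% of the 26, against 5.42% of all genes). The ranges did not overlap for 11 higher and 1 lower clock gene (0.938% and 0.382% of all genes), and 9 clock genes were among the 50 genes with the smallest p. The median log2 fold change of the 26 genes was 0.31.

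Of 8 repressors of the loop, 7 were higher and 0 lower at an unadjusted p under 0.05, with a median of 0.40. Cry2, a cryptochrome, had 81.7, 92.8, 85.5, 91 and 85.4 TPM in NCAC libraries 1 to 5, against 71.1, 65.9, 64.5, 71.6 and 75.2 TPM in mock libraries 1 to 5. No NCAC library overlapped with mock, and the log2 fold change was 0.32 ± 0.07 (unadjusted p = 4.95e-05; adjusted p = 0.228). Per2 had 60.9, 49, 44.2, 34.1 and 48 TPM in NCAC libraries 1 to 5, against 11.7, 23.2, 19.8, 22 and 30.3 TPM in mock libraries 1 to 5. The lowest NCAC library, number 4, stood just above the highest mock library, number 5, and the log2 fold change was 1.14 ± 0.38 (adjusted p = 0.684), the largest of the 26 clock genes. Per1 had 73.2, 102, 87.6, 114 and 77.7 TPM in NCAC libraries 1 to 5, against 41.9, 64.6, 40.5, 58.7 and 58 TPM in mock libraries 1 to 5. Again the ranges were apart, at 0.78 ± 0.28 (adjusted p = 0.778). Per1 is also induced by glucocorticoids and counts in both lists. Ciart, a repressor of the Clock and Arntl pair, had 36.4, 32.1, 28.7, 38.9 and 35.6 TPM in NCAC libraries 1 to 5, against 15, 15.3, 14.8, 19.3 and 25.9 TPM in mock libraries 1 to 5. Mock library 5 was the highest of its group and still below every NCAC library, with a log2 fold change of 0.92 ± 0.25 (adjusted p = 0.407). Per3 (0.43 ± 0.11), Cry1 (0.38 ± 0.15) and the nuclear receptor Nr1d2 (0.27 ± 0.08) were also higher, Per3 with overlapping ranges. Nr1d1 was the exception among repressors, with 157, 188, 203, 222 and 212 TPM in NCAC libraries 1 to 5, against 173, 161, 166, 221 and 196 TPM in mock libraries 1 to 5. Its groups overlapped through most of their range, at 0.10 ± 0.10 (adjusted p = 0.95).

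Output factors showed the same direction, with 9 of 12 higher at an unadjusted p under 0.05 and 0 lower, and a median of 0.35. Hlf had 85.9, 85.3, 82.7, 91.7 and 84.9 TPM in NCAC libraries 1 to 5, against 57.1, 61.7, 60.5, 68.1 and 69.6 TPM in mock libraries 1 to 5. The NCAC libraries lay close together and all above mock, at 0.44 ± 0.11 (adjusted p = 0.243, and 0.0305 when these 10 libraries were fitted alone). Tef had 230, 228, 213, 229 and 225 TPM in NCAC libraries 1 to 5, against 153, 153, 142, 175 and 198 TPM in mock libraries 1 to 5. The groups did not overlap, at 0.46 ± 0.12 (adjusted p = 0.315). Dbp had 195, 213, 262, 278 and 245 TPM in NCAC libraries 1 to 5, against 120, 122, 124, 177 and 224 TPM in mock libraries 1 to 5. Mock libraries 1 to 3 were far below NCAC, whereas mock library 5 lay inside the NCAC range, and the log2 fold change was 0.67 ± 0.19 (adjusted p = 0.407). Bhlhe41, a basic helix-loop-helix repressor, had 32.5, 34, 35.7, 35.6 and 34.8 TPM in NCAC libraries 1 to 5, against 22.5, 23.8, 25.3, 28.1 and 29 TPM in mock libraries 1 to 5. Its ranges were apart, at 0.41 ± 0.10 (adjusted p = 0.228). Of the other outputs, the deubiquitinase Usp2 (0.38 ± 0.12), the cell cycle kinase Wee1 (0.31 ± 0.10), the ubiquitin ligase gene Lonrf3 (0.32 ± 0.10), Bhlhe40 (0.26 ± 0.11) and Tsc22d3 (0.58 ± 0.22), a leucine zipper protein that is also a glucocorticoid target, were higher at an unadjusted p under 0.05. Nfil3, a repressor that competes for D-boxes, was at -0.01, Dtx4 at -0.10 and Tspan4 at 0.03.

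Of 6 tested activators, 2 were lower and 0 higher at an unadjusted p under 0.05. Arntl had 37.3, 36.5, 37.7, 34.3 and 36.3 TPM in NCAC libraries 1 to 5, against 57.6, 59.1, 52.1, 46 and 38.1 TPM in mock libraries 1 to 5. The NCAC libraries lay in a narrow band below every mock library, and within mock the level was lowest in library 5, at a log2 fold change of -0.45 ± 0.13 (unadjusted p = 0.001; adjusted p = 0.516). Clock had 34.6, 34.5, 35.5, 34.2 and 33.4 TPM in NCAC libraries 1 to 5, against 42.4, 47, 42.6, 40.5 and 34.2 TPM in mock libraries 1 to 5. Only mock library 5 overlapped with NCAC, and the log2 fold change was -0.25 ± 0.08 (adjusted p = 0.671). Npas2, a low transcript, was at -0.28 (unadjusted p = 0.0726), and Rora (0.05) and Rorb (0.13) had unadjusted p-values of 0.231 and 0.113. Among 8 tested kinases, ubiquitin ligases and partners of clock proteins, Csnk1e, a kinase that phosphorylates Period proteins, was higher (0.20 ± 0.07; ranges apart), Sirt1, a deacetylase, was higher (0.13), and Btrc, a ubiquitin ligase subunit, was lower (-0.09), all at unadjusted p-values under 0.05. The median of those 8 was 0.03.

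**Figure D1:**
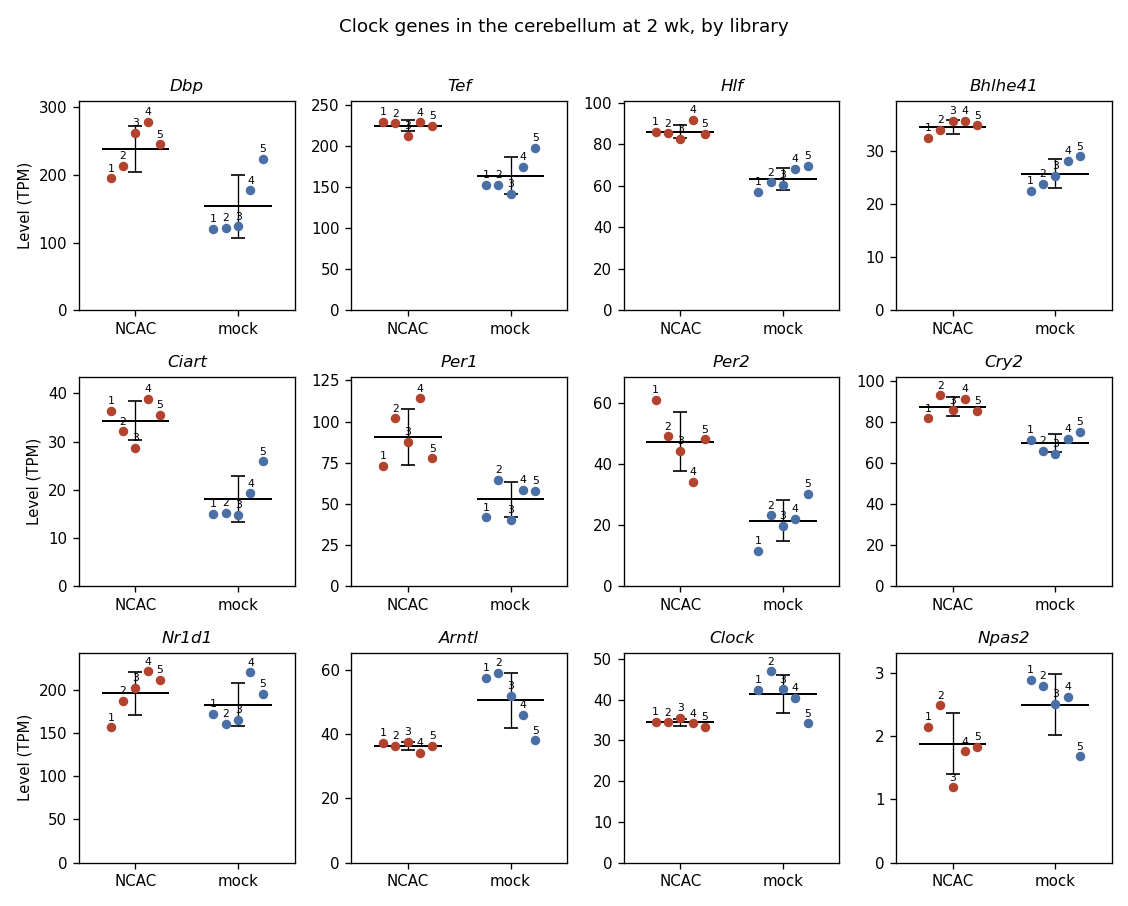
TPM of 12 clock genes in each NCAC (left, red) and mock (right, blue) library at 2 wk. Points carry replicate numbers, horizontal lines are means and error bars are SD (n = 5). Ciart, Per1, Per2, Cry2, Tef, Hlf and Bhlhe41 are higher and Arntl is lower in NCAC without overlap. Mock replicate 5 is the mock library closest to NCAC for Dbp, Ciart and Arntl.

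Promoter sequences are shown for 4 clock genes because the binding motifs of the loop can be read in them. They are RefSeq windows of 300 bases, from 250 before to 50 after a transcription start, on GRCm38.p6, printed 5′ to 3′ on the gene's strand with motif matches in capitals. The E-box CACGTG, bound by the Clock and Arntl pair, was found in 7.15% of all 32851 windows and in 8 of 30 windows of the 21 clock genes that matched the table. The D-box TTATGTAA, bound by Dbp, Tef and Hlf, was found in 0.938% of all windows and in 1 clock window. The receptor element bound by Rora and Nr1d1, TAGGTCA with an A placed 3 bases ahead of it, was found in 0.7% of all windows and in 1 clock window. Both strands were searched, and no printed match overlaps another. The Ciart window (chr3:95882179-95882478, minus strand) holds 3 E-boxes, whose first bases lie at -116, -58 and -44 from the start. The Bhlhe41 window (chr6:145865371-145865670, minus strand) holds 1 at -153. The Per3 window (chr4:151044616-151044915, minus strand) holds 2 D-boxes at -205 and -158. The second Arntl window (chr7:113207261-113207560, plus strand) holds 1 receptor element, at 27.
Ciart: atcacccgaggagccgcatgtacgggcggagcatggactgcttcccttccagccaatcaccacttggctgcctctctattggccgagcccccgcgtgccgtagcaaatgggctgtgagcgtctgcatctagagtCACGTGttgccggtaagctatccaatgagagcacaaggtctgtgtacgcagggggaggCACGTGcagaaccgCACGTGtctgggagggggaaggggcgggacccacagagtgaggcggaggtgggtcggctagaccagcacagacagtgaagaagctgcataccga
Bhlhe41: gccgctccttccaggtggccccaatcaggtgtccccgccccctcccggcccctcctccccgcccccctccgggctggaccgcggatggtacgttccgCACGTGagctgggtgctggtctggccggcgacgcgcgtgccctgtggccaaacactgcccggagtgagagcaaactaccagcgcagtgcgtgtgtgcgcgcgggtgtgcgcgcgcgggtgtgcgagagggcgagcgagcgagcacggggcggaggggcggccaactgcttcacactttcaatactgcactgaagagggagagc
Per3: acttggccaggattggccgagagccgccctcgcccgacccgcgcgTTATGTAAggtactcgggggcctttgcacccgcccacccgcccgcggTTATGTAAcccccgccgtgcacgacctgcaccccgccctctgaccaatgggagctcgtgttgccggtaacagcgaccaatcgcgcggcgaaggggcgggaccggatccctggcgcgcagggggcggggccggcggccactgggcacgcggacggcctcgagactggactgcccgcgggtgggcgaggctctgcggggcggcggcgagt
Arntl: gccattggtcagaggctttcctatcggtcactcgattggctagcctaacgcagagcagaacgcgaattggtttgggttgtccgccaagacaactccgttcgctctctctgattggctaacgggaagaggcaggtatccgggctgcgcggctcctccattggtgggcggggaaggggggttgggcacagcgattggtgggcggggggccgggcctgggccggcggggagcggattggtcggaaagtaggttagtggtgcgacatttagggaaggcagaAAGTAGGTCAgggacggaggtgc

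Beside these letters, Ciart and Bhlhe41, with E-boxes, were higher in NCAC (log2 fold changes 0.92 and 0.41), as was Per3 with its D-boxes (0.43), and Arntl was lower (-0.45). E-boxes were also found in windows of Per1 (0.78), Cry1 (0.38), Tef (0.46), Lonrf3 (0.32) and Tspan4 (0.03). Dbp (0.67), Hlf (0.44) and Cry2 (0.32) were higher without a match to any of the 3 motifs in their windows. So were Nr1d2, Usp2 and Tsc22d3. A match describes these letters and does not show that a factor is bound.

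The clock medians were farther from 0 at 2 wk than at the later stages, though no gene passed the test of that change. Core clock genes had a median log2 fold change of 0.22 at 2 wk, -0.04 at 4 wk, -0.11 at 6 wk and 0.03 at 8 wk, and outputs had 0.35, -0.03, -0.05 and 0.15 at the same stages. Dbp stood at 0.67 at 2 wk and at 0.05 at 4 wk, -0.02 at 6 wk and 0.17 at 8 wk, and Arntl at -0.45 at 2 wk and at 0.04 at 4 wk, 0.03 at 6 wk and -0.15 at 8 wk. The change of the NCAC difference, 2 wk minus the mean of the later stages, was tested over all genes: limma called 0 of 14399 (0%), with 1077 (7.48%) at an unadjusted p under 0.05. Among the clock genes, 15 were higher (4.71% of all genes) and 2 lower (2.77% of all genes) at an unadjusted p under 0.05 in that test. The change was 0.49 for Hlf (unadjusted p = 0.000225; adjusted p = 0.537), 0.31 for Cry2 and 0.84 for Ciart.

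Each group at 2 wk was also set against its own later stages, which are separate libraries. Week and age cannot be told apart in this comparison. Against NCAC at 4 to 8 wk, 13 clock genes were higher in NCAC at 2 wk and 1 lower at an unadjusted p under 0.05, where 9.87% of all genes were higher and 3.5% lower. Against mock at 4 to 8 wk, 0 clock genes were higher in mock at 2 wk and 6 lower, where 2.97% of all genes were higher and 1.85% lower. Of the 12 group means, NCAC at 2 wk was the highest and mock at 2 wk the lowest for Hlf, Bhlhe41, Ciart, Nr1d2 and Wee1. For Arntl and Clock, NCAC at 2 wk was the lowest of the 12 groups and mock at 2 wk the highest. CAC at 2 wk, set against the same mock libraries, had medians of 0.09 for core genes and 0.12 for outputs, with Hlf at 0.13 and Arntl at -0.07.

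Leaving out 1 library at a time left 15 or 16 clock genes higher and 2 or 3 lower at an unadjusted p under 0.05. Without mock library 5 the counts were 16 and 3, with 5.51% of all genes at that limit. Summed TPM of the core genes was 937 to 1040 in NCAC and 778 to 883 in mock, and that of the outputs was 970 to 1050 in NCAC and 675 to 905 in mock, so neither sum overlapped between the groups.

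**Figure D2:**
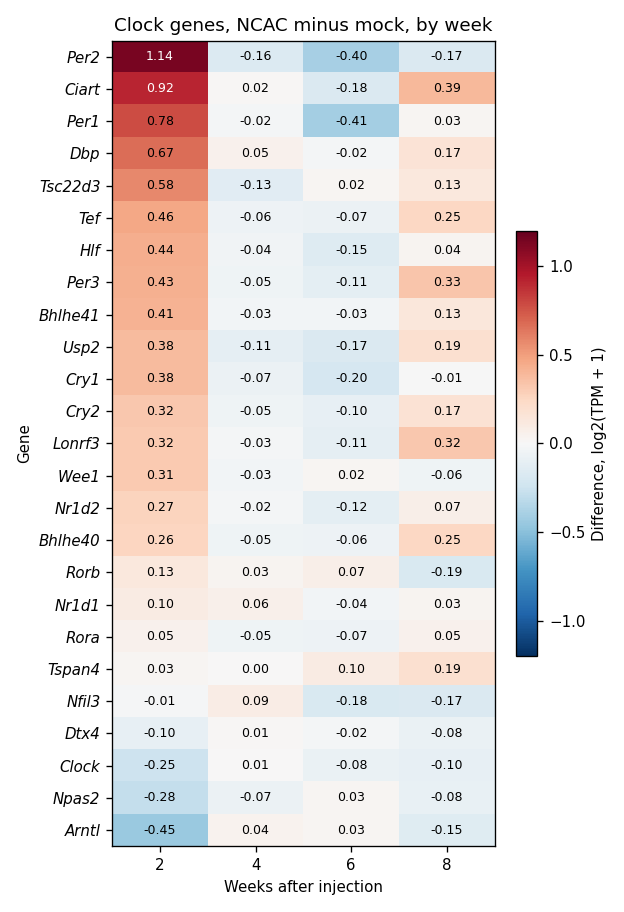
Difference between NCAC and mock (log2 of TPM + 1, NCAC minus mock) of clock genes, in rows, at 2, 4, 6 and 8 wk, in columns; red is higher and blue lower in NCAC. The first column runs from 1.14 for Per2 to -0.45 for Arntl, and no value at 4 wk is farther from 0 than -0.16.

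Targets of the glucocorticoid receptor, a nuclear receptor that binds corticosterone and induces genes of metabolism and stress, stood above mock in fold change, short of the test. All 24 tested targets had a log2 fold change above 0, where 55.6% of all genes did, with a median of 0.43. Among the 24 is a gene that stayed under 1 TPM in all 10 libraries. However, 0 passed the test and 7 were higher at an unadjusted p under 0.05 (3.27% of all genes were). These 7 were Per1, Tsc22d3, Ddit4, Mt2, Hif3a, Nfkbia and Mertk. Ddit4, an inhibitor of mTORC1 signalling, had 78, 102, 78.9, 87.9 and 80.3 TPM in NCAC libraries 1 to 5, against 75.7, 63.6, 68.1, 69 and 70.8 TPM in mock libraries 1 to 5. The groups did not overlap, at 0.29 ± 0.13 (adjusted p = 0.893). Mt2, a metallothionein that binds zinc and copper, had 802, 965, 624, 532 and 713 TPM in NCAC libraries 1 to 5, against 400, 391, 443, 471 and 666 TPM in mock libraries 1 to 5. Mock library 5 lay within the NCAC range, at 0.61 ± 0.29 (adjusted p = 0.908). Hif3a, a hypoxia-inducible factor subunit, had 10.6, 8.79, 5.21, 6.03 and 11.6 TPM in NCAC libraries 1 to 5, against 2.31, 2.72, 1.82, 4.19 and 10.8 TPM in mock libraries 1 to 5. Mock library 5 was again far above the rest of its group, and the log2 fold change was 0.98 ± 0.46 (adjusted p = 0.908). The co-chaperone Fkbp5 had 9.12, 14.4, 5.86, 5.83 and 6.85 TPM in NCAC libraries 1 to 5, against 3.94, 4.89, 4.58, 5.61 and 8.02 TPM in mock libraries 1 to 5. NCAC libraries 1 and 2 stood above all mock libraries and the other 3 lay within the mock range, at 0.51 ± 0.37 (unadjusted p = 0.166). Zbtb16 (0.94 ± 0.55), a zinc finger factor, and Plin4 (0.95 ± 0.59), a lipid droplet protein, had large differences with large errors.

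The count moved with the fit and with single libraries. Median-of-ratios scaling lowered it from 7 to 5, and quantile normalization also gave 5. Dropping the genes encoded in mitochondria gave 5 as well, and a block for the replicate number gave 6. These fits had 5.08% to 5.43% of all genes at an unadjusted p under 0.05. The choroid plexus covariate raised the count to 8, where 4.97% of all genes were at that limit. The count was 19 when these 10 libraries were fitted alone and 14 with sample weights, with 0 called in either. In those fits 7.26% and 8.82% of all genes had an unadjusted p under 0.05, in either direction, against 5.42% in the reported fit. Without mock library 5, in which Zbtb16 stood at 19.8 TPM and Tsc22d3 at 85 TPM, 12 of the 24 targets were higher at an unadjusted p under 0.05 and the median was 0.52, with Tsc22d3 at 0.69, Hif3a at 1.31 and Mt2 at 0.74. Without NCAC library 2, the highest for Fkbp5, Mt2, Ddit4 and Plin4, 2 were and the median was 0.30. Without NCAC library 1 or 5 the count was 4 or 3, and without mock library 1, 2 or 3 it was 4, 2 or 3. Across these left-out fits, 4.23% to 6.46% of all genes were at that limit in either direction. The mean log2 level of the list was 4.953 to 5.448 in NCAC and 4.559 to 5.128 in mock, where the 4 other mock libraries lay at 4.719 or below. Mock library 5 also held the most blood cell RNA. The summed TPM of 6 red blood cell genes was 722 to 1290 in NCAC and 934 to 1470 in mock libraries 1 to 4, against 4030 in mock library 5. That of 8 neutrophil genes was 2.86 to 10 TPM in NCAC and 3.57 to 7.32 TPM in mock libraries 1 to 4, against 14.3 TPM in mock library 5, with Ly6g, Camp, Elane, Mpo and Retnlg under 1 TPM in all 10 libraries. Of the 6 red blood cell and 2 neutrophil genes tested, 0 had an unadjusted p under 0.05 between the groups, and the part of blood cell RNA in the result was not tested. At 4, 6 and 8 wk the median differences of the glucocorticoid targets were -0.07, 0.03 and 0.15. The receptor genes Nr3c1 and Nr3c2, their chaperones and Hsd11b1, which regenerates corticosterone, had a median of 0.02, and 0 of 8 had an unadjusted p under 0.05.

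**Figure D3:**
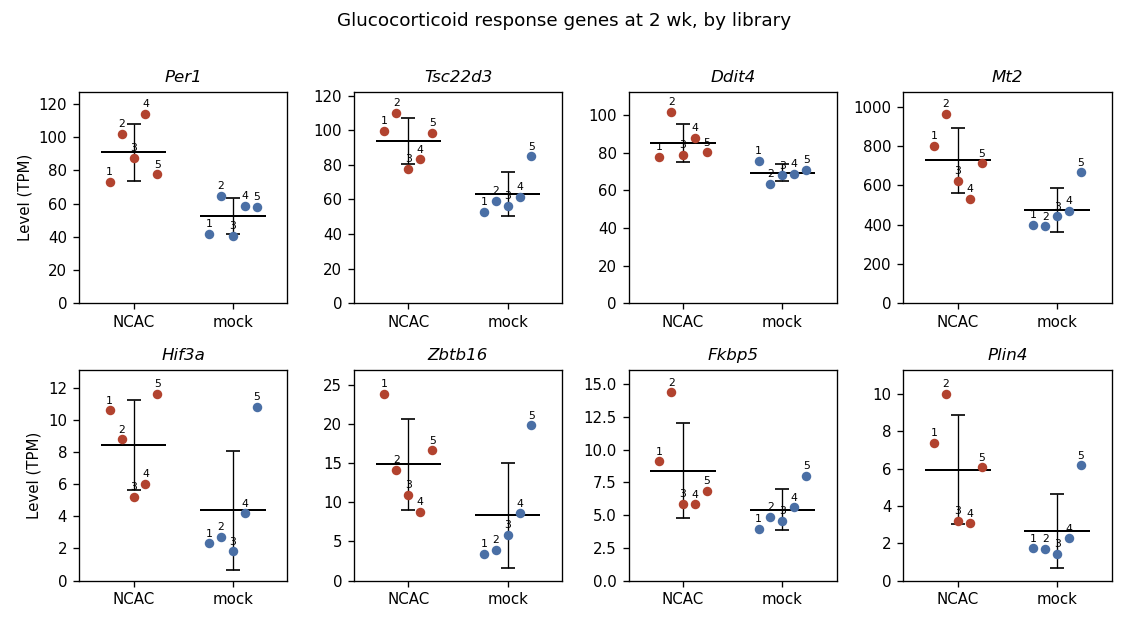
TPM of 8 glucocorticoid response genes in each NCAC (left) and mock (right) library at 2 wk, with replicate numbers, means (lines) and SD (error bars, n = 5). Mock replicate 5 reaches the NCAC range for Tsc22d3, Mt2, Hif3a, Zbtb16, Fkbp5 and Plin4, whereas Per1 and Ddit4 do not overlap.

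Some genes of the vessel wall were lower in NCAC at an unadjusted p under 0.05. Vessels of the brain are lined by endothelial cells, wrapped by mural cells (pericytes and smooth muscle) and bounded by a basement membrane of collagen IV and laminins. No gene of these lists passed the test. At an unadjusted p under 0.05, 5 of 13 basement membrane genes, 4 of 15 mural genes and 3 of 15 endothelial genes were lower and 0 were higher, against 2.15% of all genes lower. The medians were -0.08, -0.15 and -0.12. Col4a1, the collagen IV alpha chain, had 10.6, 10.3, 10.2, 10.6 and 10.4 TPM in NCAC libraries 1 to 5, against 14.4, 13.2, 16.6, 14.8 and 15.3 TPM in mock libraries 1 to 5. The 5 NCAC libraries lay close together and below every mock library, at -0.47 ± 0.11 (unadjusted p = 0.000107; adjusted p = 0.228, and 0.0305 when these 10 libraries were fitted alone). Its partner chain Col4a2 had 8.54, 8.81, 7.15, 9.81 and 9.13 TPM in NCAC libraries 1 to 5, against 12.1, 9.91, 12.6, 11.9 and 10.2 TPM in mock libraries 1 to 5. The ranges were narrowly apart, at -0.35 ± 0.12 (adjusted p = 0.671). Lama2 (-0.27), Nid2 (-0.41) and Hspg2 (-0.24), a laminin chain, a nidogen and the proteoglycan perlecan, were lower with overlapping ranges.

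Acta2, the smooth muscle actin, had 19.2, 21, 16.2, 21.5 and 18.2 TPM in NCAC libraries 1 to 5, against 25.4, 29.6, 31.5, 25.2 and 25.4 TPM in mock libraries 1 to 5. All NCAC libraries were below all mock libraries, at -0.49 ± 0.14 (adjusted p = 0.519). Vtn (-0.26), a pericyte-enriched vitronectin, Myh11 (-0.25), smooth muscle myosin, and Cspg4 (-0.18), the NG2 proteoglycan of pericytes and oligodendrocyte precursors, were lower with overlap. Of endothelial genes, Kdr, the VEGF receptor, had 5.53, 5.61, 6.24, 6.66 and 5.48 TPM in NCAC libraries 1 to 5, against 7.73, 7.85, 7.71, 7.32 and 6.84 TPM in mock libraries 1 to 5. Its ranges did not overlap, at -0.30 ± 0.14 (unadjusted p = 0.0348). Cldn5 (-0.43 ± 0.17), the tight junction protein, and Cdh5 (-0.23 ± 0.07), the adherens junction cadherin, were lower, whereas Mfsd2a (0.42), a lipid transporter of the blood-brain barrier, and Slc2a1 (0.24), its glucose transporter, were above 0 without an unadjusted p under 0.05. Later, Col4a1 was at -0.0032 at 4 wk, 0.14 at 6 wk and -0.21 at 8 wk, and Acta2 at -0.11 at 4 wk, -0.05 at 6 wk and 0.05 at 8 wk. Mock at 2 wk was the highest of the 12 groups for both. Against mock at 4 to 8 wk, 5 basement membrane, 4 mural and 1 endothelial gene were higher in mock at 2 wk and 0 lower. Against NCAC at 4 to 8 wk, 2, 0 and 0 were higher in NCAC at 2 wk and 2, 1 and 0 lower. These counts are at an unadjusted p under 0.05, where 2.97% of all genes were higher in mock and 9.87% in NCAC. The medians of the 3 lists were 0.11, 0.14 and 0.07 in mock and -0.02, -0.03 and -0.04 in NCAC.

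Choroid plexus RNA, from the tissue that makes cerebrospinal fluid and can be carried along with the cerebellum, varied between libraries, most of all within NCAC. Ttr, its abundant transthyretin transcript, had 4.34, 5130, 13.1, 4670 and 14.6 TPM in NCAC libraries 1 to 5, against 3680, 5110, 1660, 601 and 2620 TPM in mock libraries 1 to 5. NCAC libraries 1, 3 and 5 were close to 0 relative to the others, while NCAC libraries 2 and 4 stood with the highest mock libraries. Low Ttr was also found in other groups of the series. Their lowest library ranged from 13 TPM in CAC at 2 wk to 2720 TPM in NCAC at 4 wk, with 13.9 TPM in mock at 4 wk. Of 10 choroid plexus genes, 7 were lower at an unadjusted p under 0.05 (2.15% of all genes were) and the median was -1.39. Their summed TPM was 22.4 to 5280 in NCAC and 638 to 5270 in mock, and Kl, Sostdc1, Aqp1, Folr1, Kcne2 and Prlr were under 1 TPM in NCAC libraries 1, 3 and 5. Of 10 meningeal genes, 3 were lower at that limit (Aldh1a2, Igf2 and Col3a1; 2.15% of all genes were), with a median of -0.24 and a sum of 773 to 1750 TPM in NCAC and 1260 to 1810 TPM in mock. Igf2, a growth factor of choroid plexus and meninges, had 40.2, 97.4, 25.1, 98.9 and 30.2 TPM in NCAC libraries 1 to 5, against 74.2, 100, 71.7, 52.5 and 88.1 TPM in mock libraries 1 to 5. Its low NCAC libraries were 1, 3 and 5.

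The vessel genes were set beside this split. In NCAC libraries 2 and 4, where Ttr was high, Col4a1 was at 10.3 and 10.6 TPM and Acta2 at 21 and 21.5 TPM, below the lowest mock values of 13.2 and 25.2 TPM. With the mean choroid plexus level as a covariate, Col4a1 was at -0.51 (unadjusted p = 9.67e-05), Acta2 at -0.49 (0.00191), Cldn5 at -0.49 (0.00686) and Kdr at -0.30 (0.0513). Igf2 was at -0.07 (0.619) and the choroid plexus median at 0.06 in that fit. The counts were then 3 of 13 basement membrane, 3 of 15 mural and 2 of 15 endothelial genes lower, with 1 endothelial gene higher, and 0 of 10 meningeal genes lower. Without NCAC library 3, the lowest for Acta2 and Col4a2, the mural count was 3, the basement membrane count 3 and its median -0.03, and the meningeal count was 0. Without NCAC library 2 the basement membrane count was 6 and the median -0.15. Without NCAC library 4 the mural count was 7 and the endothelial count 5. Without NCAC library 5 the mural count was 2, and without mock library 1 the endothelial count was 1. The choroid plexus count was 0 without NCAC library 1, 1 without NCAC library 3 or 5, 10 without NCAC library 2, 4 without mock library 1 and 3 without mock library 2 or 5. The choroid plexus median was -1.11, -1.08 and -1.12 without NCAC library 1, 3 or 5, and -1.79 and -1.81 without NCAC library 2 or 4. The meningeal count was 5 and the median -0.37 without NCAC library 2, the median was -0.08 without NCAC library 3, and the count was 1 without mock library 2 or 3. With these 10 libraries fitted alone, 7 endothelial genes were lower and 1 higher and the choroid plexus count was 0. With sample weights the choroid plexus count was 1. The share of all genes at that limit, in either direction, was 7.26% and 8.82% in these 2 fits. It was 4.97% with the covariate and 4.23% to 6.46% without 1 library. Clock counts with the choroid plexus covariate were 16 higher and 2 lower.

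**Figure D4:**
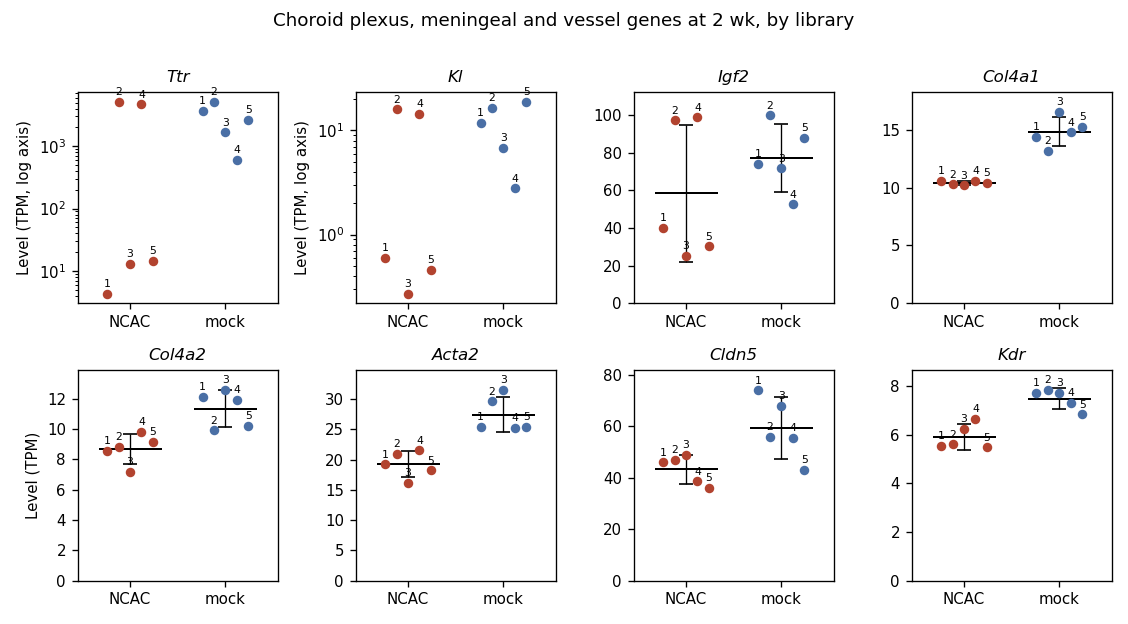
TPM of choroid plexus (Ttr, Kl; log axes, points only), meningeal (Igf2), basement membrane (Col4a1, Col4a2), smooth muscle (Acta2) and endothelial (Cldn5, Kdr) genes in each NCAC (left) and mock (right) library at 2 wk, with replicate numbers; lines are means and error bars SD (n = 5). NCAC replicates 1, 3 and 5 are low in Ttr, Kl and Igf2, whereas all 5 NCAC replicates are low in Col4a1 and Acta2.

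**Figure D5:**
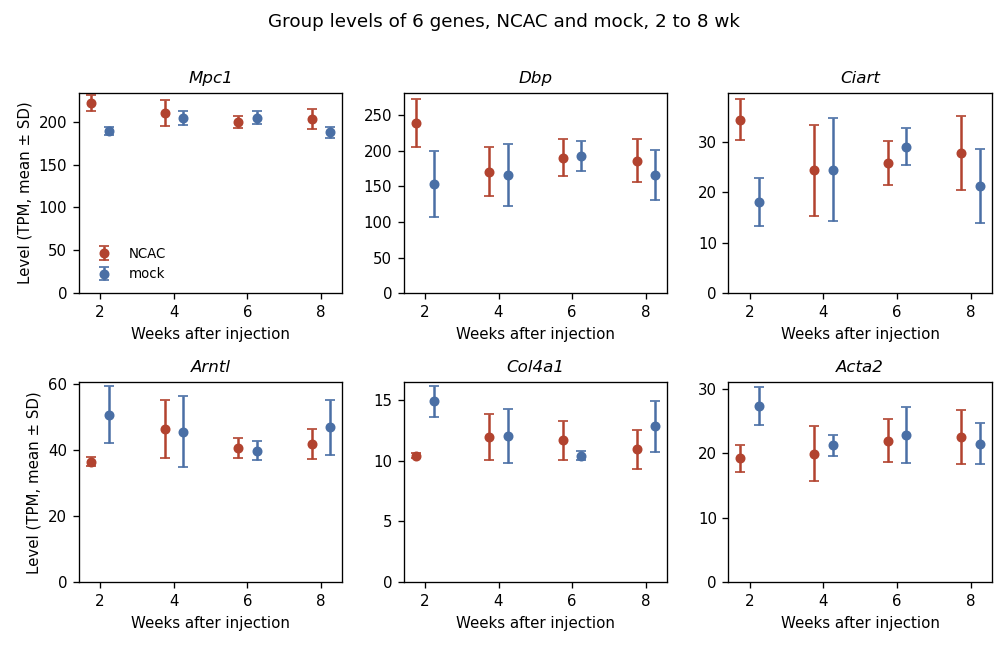
Mean TPM with SD (n = 5) of 6 genes at 2, 4, 6 and 8 wk in NCAC (left of each pair, red) and mock (right, blue). The means are apart at 2 wk for all 6 genes, with Mpc1, Dbp and Ciart higher and Arntl, Col4a1 and Acta2 lower in NCAC, and lie closer at 4 wk.

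Further genes with ranges apart were taken by the smallest p. Higher in NCAC were Rasd2, a small GTPase (0.45 ± 0.12; 29.4 ± 3.11 TPM in NCAC and 21.2 ± 2.3 TPM in mock, SD, n = 5 each), Hrh3, the histamine H3 receptor (0.32 ± 0.08), Txndc16 (0.23 ± 0.06) and Acap2, an Arf GTPase-activating protein (0.15 ± 0.04). Lower in NCAC were Pfkp, the platelet-type phosphofructokinase of glycolysis, Spryd3 (-0.26 ± 0.07), Nfkbie, an inhibitor of NF-kappaB (-0.37 ± 0.11), Vat1l (-0.27 ± 0.09) and the mitochondrial ribosomal proteins Mrps16 (-0.14 ± 0.05) and Mrpl13 (-0.11 ± 0.04). Pfkp had 79, 76.2, 75.7, 74.8 and 75.7 TPM in NCAC libraries 1 to 5, against 82.3, 83.9, 86.1, 89.3 and 81.5 TPM in mock libraries 1 to 5. The difference was small beside a tight spread, at -0.15 ± 0.04 (adjusted p = 0.228 in limma, and 0.0285 with quantile normalization). None of these 10 genes passed the test.

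Other gene groups gave few differences. The adjusted p was above 0.05 for every gene of the neuron, astrocyte, oligodendrocyte and microglia lists. Purkinje, granule cell and inhibitory interneuron genes had medians of 0.01, 0.03 and 0.003, with 0 of 10 in each list at an unadjusted p under 0.05, and oligodendrocyte genes had -0.02 with 0 of 12. Microglia genes had a median of -0.11, with 12 of 14 below 0 and 0 of 14 at an unadjusted p under 0.05. Among 12 astrocyte and Bergmann glia genes, 1 was higher at an unadjusted p under 0.05 (3.27% of all genes were). It was Gdf10 (0.23), a secreted factor of Bergmann glia. At that limit 0 were lower, and 1 of the 12 was lower without overlap (0.382% of all genes were). Of 12 tested stress response genes, Herpud1 (0.23 ± 0.09) and Dnajb9 (0.13 ± 0.05), both of the endoplasmic reticulum, were higher at an unadjusted p under 0.05 (3.27% of all genes were), Herpud1 without overlap (0.938% of all genes). Pik3ip1, a Foxo target that restrains PI3K, had 47.7, 50.6, 44.6, 50.2 and 50.4 TPM in NCAC libraries 1 to 5, against 41.6, 36.1, 36.5, 42.3 and 42.9 TPM in mock libraries 1 to 5. The ranges were apart, at 0.28 ± 0.10 (adjusted p = 0.784). At the same limit, 2 of 22 cholesterol synthesis genes, Lss (0.12) and Fdps (0.14), and 2 of 37 nuclear genes of oxidative phosphorylation, Cox4i1 (0.05) and Ndufb8 (0.09), were higher, against 3.27% of all genes. None passed the test. All 13 mitochondrially encoded genes had a log2 fold change below 0 (median -0.05), where 55.6% of all genes were above 0. Only mt-Nd6 was lower at an unadjusted p under 0.05 (2.15% of all genes were), at -0.72 ± 0.31 (adjusted p = 0.896).

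NCAC at 2 wk was last set against NCAC at the later stages, to see which genes differed between stages of the tumour-bearing group. The stages are separate libraries, and week and age cannot be told apart. Limma called 5 of 14399 genes (0.0347%), and 1925 (13.4%) had an unadjusted p under 0.05. The 5, chosen after their values were seen, were Acap2 (0.18 ± 0.03), Acap3 (0.17 ± 0.03) and Dcun1d5 (0.15 ± 0.03), which were higher at 2 wk, and Sntb1 (-0.57 ± 0.11) and Prlr (-1.23 ± 0.26), which were lower. Acap3 is a relative of Acap2, Dcun1d5 takes part in cullin neddylation, Sntb1 is a syntrophin, and Prlr, the prolactin receptor, is in the choroid plexus list. The count was 97 without NCAC library 2 and 98 without NCAC library 4, the 2 libraries with choroid plexus RNA, and 1 with the choroid plexus covariate. Mock at 2 wk against mock at later stages gave 0 calls (0%), with 694 genes (4.82%) at an unadjusted p under 0.05.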

How the data were processed

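RNA of mouse cerebellum was sequenced in 62 libraries, and 10 of them, NCAC and mock at 2 wk, are described here. Per the labels' protocols, tissue was lysed in Trizol, and a stranded mRNA kit was used to prepare the libraries for Illumina sequencing. The authors deposited 1 table of TPM per gene symbol, which scales each library to the same total. The build was mm10, per the submitters' processing notes. No aligner, counting tool or annotation is named: each is not given in the sources used here. Groups were taken from the sample labels. The treatment field, which names cachectic cells for every sample, and a mention of LLC cells in the extraction protocol disagree with the design and were not used.

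From the table, genes with a mean of at least 1 TPM over the 62 libraries were kept (14399 of 47643 symbols), and log2(TPM + 1) was fitted with limma 3.58.1 in R 4.3.3. The fit held all 12 groups with an intensity trend, no covariate and 50 residual degrees of freedom. P-values are two-sided and adjusted over all tested genes of a comparison. The comparisons were NCAC against mock at 2 wk, the change of that difference from the later stages, and each group at 2 wk against its own later stages. The members, the 36 gene lists and the rule for named genes were chosen with earlier results of these data known. The rule took every called gene, the 10 smallest p-values in each direction among genes whose groups did not overlap (clone and pseudogene names left out), all tested clock genes, and up to 6 or 2 members of each other list by p. For some genes taken by this rule or on these lists, the results are counted but not reported here. Coordinates are from GENCODE M21 on mm10 and promoters from RefSeq on GRCm38.p6.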

Additional observations from a re-analysis of the deposited data

Results flagged for a closer look

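Of 148 groups of 5 libraries examined for the named genes, 10 held a library far from the other 4 (Dixon's ratio above 0.71), and chance flags about 1 in 20 groups. Of the 10, 4 were mock library 5, which stood high for Tsc22d3 (85 TPM), Hif3a (10.8 TPM), Pdk4 (14.8 TPM) and Cebpd (4.42 TPM), an inflammation-induced transcription factor. The first 3 are glucocorticoid targets. The other 4 mock libraries lay at 61.6 TPM or below for Tsc22d3.

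The remaining flags were single values. NCAC library 1 was low for Mrpl13 (8.25 TPM) and mock library 1 high for it (10.1 TPM). NCAC library 5 was low for Wee1 (23.2 TPM) and NCAC library 4 high for Cspg4 (5.15 TPM). Mock library 1 was low for Hspa1a (4.34 TPM), a heat shock chaperone, and mock library 2 for Cox4i1 (886 TPM).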

How the results depend on the processing

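The count of calls between NCAC and mock at 2 wk, 2 as reported, was 0 with median-of-ratios scaling, without mitochondrially encoded genes and with the choroid plexus covariate, 1 with quantile normalization (Pfkp), 3 with these 10 libraries fitted alone (Col4a1, Hlf and Mthfd1l) and 5 with sample weights. Neither of the 2 reported genes was among the calls of the quantile fit or of the fit on these libraries alone. Leaving out 1 library at a time gave 0 to 2. The labels do not say whether the replicate numbers pair the libraries. Deviations of same-numbered libraries correlated at -0.03, 0.29, 0.19, -0.24 and 0.03, and 2 of 5 libraries correlated best with their own number. These 5 values are too few to decide it. With a replicate block the count was 0 (Mpc1 adjusted p = 0.0581). The test of the change from later stages called 0 genes, 1 with sample weights, and 0 in every setting that left out 1 library. NCAC at 2 wk against its later stages gave 5 calls, 14 with a pseudocount of 0.1, 2 without a filter, 3 at a mean of at least 5 TPM, 13 with sample weights, 1 with the covariate, and 1 to 98 without 1 library. Mock at 2 wk against its later stages gave 0, 3 without a filter, 3 with sample weights, and 0 to 1 without 1 library. Medians moved beyond the replicate spread for core clock genes at a mean of at least 5 TPM (0.295), pyruvate genes with quantile normalization (-0.00838; 0.00273 to 0.0267 without 1 library) and choroid plexus genes with the covariate (0.0551). Among the named genes, Nfil3 turned positive with sample weights (0.0115) and without NCAC library 5 (0.035), mock library 1 (0.0128) or mock library 2 (0.0536), with a range of -0.0997 to 0.0536 without 1 library, and Tspan4 turned negative with the covariate (-0.00356) and without mock library 2 (-0.00528; highest 0.0424 without 1 library). The causes were not tested. Of the named genes' values under all alternatives, 1653 kept their direction and side of the threshold, 25 were no longer past it, 6 were newly past it and 6 changed sign. Medians of the endothelial, basement membrane, choroid plexus and meningeal lists were added after seeing the data. Depth is unknown, so no limit from depth can be given.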

Other observations

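Genes induced by interferon, the antiviral cytokine response, had a median log2 fold change of -0.26 in NCAC against mock at 2 wk. Irf7, a transcription factor of that response, had 1.12, 0.0927, 1.33, 1.62 and 1.37 TPM in NCAC libraries 1 to 5, against 1.51, 0.992, 1.26, 1.75 and 8.04 TPM in mock libraries 1 to 5. The high library was mock 5, which also held the most red blood cell RNA (4030 TPM), and the low one NCAC 2. The part of that RNA in the result was not tested. Without mock library 5 the median was -0.07, and without NCAC library 2 the median was -0.17.

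Immediate early genes, which neurons switch on within minutes of activity, had a median of 0.30, with 0 of 16 at an unadjusted p under 0.05. Fos was at 0.96 and Dusp1 at 0.83 in log2 fold change. Dusp1 had 27.6, 46.5, 61.1, 78.4 and 78.2 TPM in NCAC libraries 1 to 5, against 47.1, 47.2, 20.8, 24.1 and 22.6 TPM in mock libraries 1 to 5, so the groups overlapped.

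The mitochondrially encoded mt-Nd6, the only protein gene on the light strand, had 127, 137, 170, 147 and 148 TPM in NCAC libraries 1 to 5, against 282, 193, 237, 210 and 288 TPM in mock libraries 1 to 5, without overlap. Its log2 fold change was -0.72 at 2 wk, -0.90 at 4 wk, -0.19 at 6 wk and 0.56 at 8 wk.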
